A study of Mus musculus with 8 samples.

Results

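The genes described here are the mouse corticosteroid receptors and a group of genes known to respond to glucocorticoids. They are Nr3c1, Nr3c2, Hsd11b1, Fkbp5, Sgk1, Klf9, Tsc22d3, Mt1 and Mt2, chosen by symbol and each represented by its transcript row of highest total count, which makes 9 of the 21643 genes named in the table. Polyribosome-associated RNA had been sequenced from hippocampus and prefrontal cortex of C57Bl/6 mice aged 7 to 9 weeks. Animals were fear conditioned, or exposed to the context alone as controls, and tissue was taken after 6 h or 1 h, with 1 library for each of the 8 combinations of tissue, training and time. The groups set against each other were hippocampus and cortex, 6 h and 1 h, and conditioned and control. The labels name no transgene or drug in any group. The labels do not say how many animals a library holds, and the extraction protocol names the prefrontal cortex alone. The p-values therefore measure the spread between these libraries, part of which may be technical. No combination had a replicate, so this spread is what added effects of tissue, training and time leave over. It mixes noise with any interaction of these effects. In bulk tissue, fewer cells of a type and less RNA per cell cannot be told apart. Since the RNA was polyribosome-associated, the amount of a transcript and its share on polyribosomes cannot be told apart either.

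Corticosterone, the main glucocorticoid of the mouse, enters cells and binds 2 related receptors that act as transcription factors. The mineralocorticoid receptor (Nr3c2) binds it with high affinity and is known for its abundance in hippocampal neurons, while the glucocorticoid receptor (Nr3c1) binds it with lower affinity, is widespread in brain and is engaged during stress. Bound receptors attach to glucocorticoid response elements near target genes, several of which feed back on the hormone signal.

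Libraries held between 2370973 and 5296986 counts, the lowest being the hippocampus control 6 h library. In that library Kif5c, a neuronal kinesin, took 8.01% of the counts, against 0.545% in the hippocampus conditioned 6 h library and at most 0.071% elsewhere. The libraries labelled hippocampus conditioned 1 h and cortex conditioned 1 h were not distinguishable beyond sampling noise. Of 11339 genes 0 passed a test of their difference, with a mean variance ratio of 1.061 on a scale where counting noise alone gives 1, while the next closest pair of libraries had 4.874. They were counted as 1 sample, placed midway between the tissues in the fits, and left out of group values for tissue. Of 10 hippocampal neuron markers, 9 were higher in hippocampus, and 8 of 10 cortical and 7 of 9 striatal neuron markers were lower there. Transcript GC content and length accounted for 8% to 56.7% of the variance of a library's deviations from the mean. Each result below is therefore given also with offsets that remove this trend, where they change it.

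Promoter sequences of 3 of these genes are shown because they hold known hormone or metal elements. They were read from RefSeq (GRCm38.p6, plus strand), whereas the counts were made on mm9. Each runs from 250 bases before to 50 bases after an annotated start, and capitals mark the motif. In the Sgk1 window (chr10:21993640-21993939) the capitals are a full palindromic glucocorticoid response element, its arms AGAACA and TGTTCT with 3 bases between them, starting 189 bases before the start of transcript NM_001161850. This motif, searched on both strands, was present in 3 of 32851 windows (0.00913%). It was absent from the other Sgk1 windows and from those of Nr3c2, Fkbp5, Klf9, Tsc22d3, Mt1, Mt2 and Hsd11b1.
Sgk1: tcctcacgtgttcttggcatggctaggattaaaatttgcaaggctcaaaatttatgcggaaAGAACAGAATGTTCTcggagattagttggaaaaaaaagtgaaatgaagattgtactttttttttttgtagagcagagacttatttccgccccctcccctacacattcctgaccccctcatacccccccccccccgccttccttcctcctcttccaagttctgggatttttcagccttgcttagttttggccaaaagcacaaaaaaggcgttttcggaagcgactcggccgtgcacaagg
The Mt1 window (chr8:94178839-94179138) and the Mt2 window (chr8:94172368-94172667) hold 3 and 4 metal response elements, written TGCACNC or TGCGCNC and searched on both strands. At least 1 was present in 25.7% of windows, at least 3 in 1.97% and at least 4 in 0.517%. The Nr3c2 and Hsd11b1 windows and another Sgk1 window, not shown, held 1 each.
Mt1: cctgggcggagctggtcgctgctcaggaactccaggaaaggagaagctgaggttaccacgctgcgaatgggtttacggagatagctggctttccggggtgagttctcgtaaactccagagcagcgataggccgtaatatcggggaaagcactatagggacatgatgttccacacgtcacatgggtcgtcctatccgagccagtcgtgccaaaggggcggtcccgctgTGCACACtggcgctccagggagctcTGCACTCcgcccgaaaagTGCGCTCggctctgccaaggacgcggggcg
Mt2: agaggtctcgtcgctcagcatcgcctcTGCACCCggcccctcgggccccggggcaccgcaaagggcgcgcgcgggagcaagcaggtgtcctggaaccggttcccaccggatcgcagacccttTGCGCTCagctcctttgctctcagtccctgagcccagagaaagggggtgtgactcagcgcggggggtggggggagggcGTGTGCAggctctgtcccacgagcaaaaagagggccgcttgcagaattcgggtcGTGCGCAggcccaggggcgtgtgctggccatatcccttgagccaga
The element in the Sgk1 window lies 965 bases before the start of NM_011361, the Sgk1 row used here. A match describes these letters and is not evidence of binding.

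Levels between genes were compared as CPM (counts scaled to library size, with TMM factors) per kilobase of transcript, over 7 libraries. Mt2 averaged 98.4 ± 56.2 CPM per kb and Mt1 68.9 ± 48.7 (SD, n = 7). Klf9 followed at 61.3 ± 72.9, and at 34.4 ± 18.0 (n = 6) without the hippocampus control 6 h library, which no other mean here rests on by more than 1.5 times. Then came Sgk1 at 18.5 ± 6.83, Nr3c2 at 14.7 ± 10.8 and Nr3c1 at 10.7 ± 3.27 CPM per kb. Tsc22d3 stood at 8.59 ± 4.64, Fkbp5 at 5.16 ± 2.40 and Hsd11b1 at 2.29 ± 1.70 CPM per kb. No neighbours in this order differed by more than their summed SDs. Mt2 was at percentile 97.9 of 16650 genes on this scale and Hsd11b1 at percentile 44.4.

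**Figure D1:**
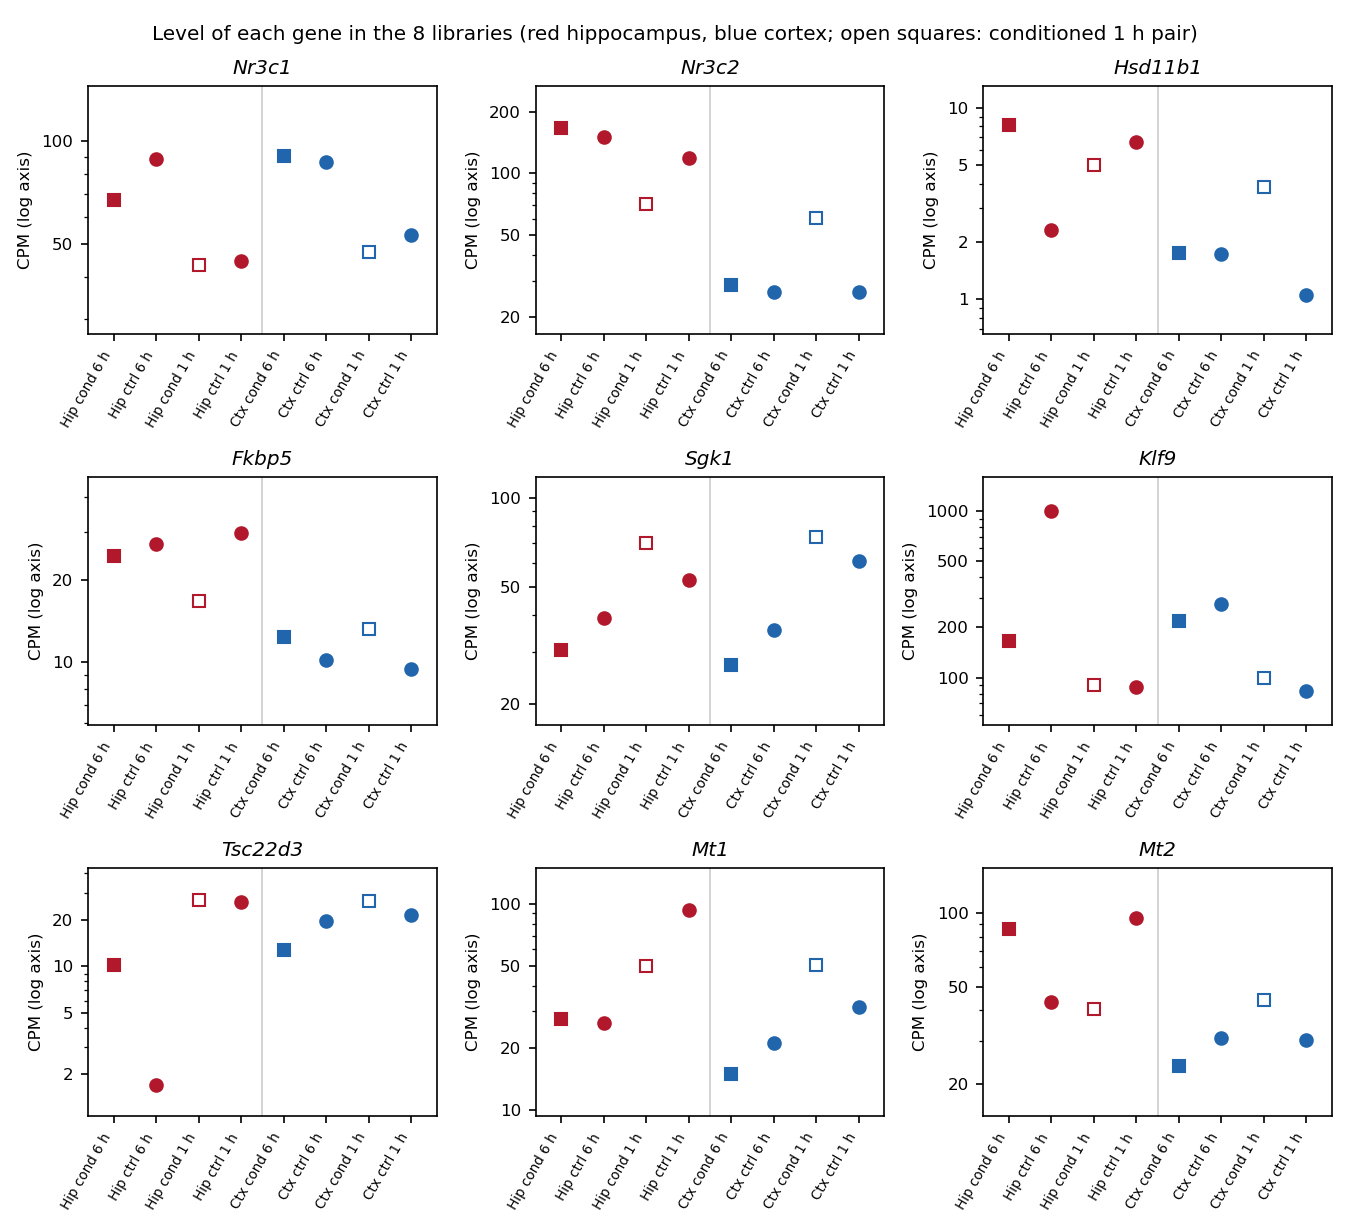
Level of each of the 9 genes in the 8 libraries in CPM (log axis, a separate range in each panel), with hippocampus (Hip, red) left of cortex (Ctx, blue), squares for conditioned (cond) and circles for control (ctrl) libraries. Open squares are the conditioned 1 h pair; Nr3c2 separates the tissues outside that pair, and Klf9 is highest in the hippocampus control 6 h library at 998 CPM.

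Nr3c2 was the gene of this group that differed most clearly between the tissues. It had 167 CPM (conditioned 6 h), 150 CPM (control 6 h) and 119 CPM (control 1 h) in hippocampus, against 28.5, 26.3 and 26.4 CPM in the same cortex libraries. All 3 hippocampus libraries lay above all 3 cortex libraries, and the conditioned 1 h pair lay between them at 70.6 and 60.4 CPM. The fitted log2 change was 2.40 (SE 0.25, adjusted p = 0.002814, edgeR quasi-likelihood test). It was called in 15 of 17 alternative settings and had the same sign in all 17. An exon of the RNA gene Gm10649 overlaps Nr3c2 by 155 bases on the opposite strand, and whether counting used strand was not stated in what was read here.

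Nr3c1 did not follow that pattern. In hippocampus it had 67.1 CPM (conditioned 6 h), 88.5 CPM (control 6 h) and 44.5 CPM (control 1 h), against 90.7, 86.6 and 53.1 CPM in cortex, and the tissues overlapped. Its log2 change between tissues was -0.23 (SE 0.24, adjusted p = 0.7068, edgeR). Per kilobase, Nr3c2 therefore stood above Nr3c1 in hippocampus, at ratios of 2.78, 1.89 and 2.98, and below it in cortex, at 0.35, 0.339 and 0.555, in the same order of libraries. The counting intervals (95%, counting error only) did not reach 1 in any of these 6 libraries.

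Hsd11b1, the enzyme that regenerates active corticosterone from its inert form, was the least abundant of the group. It had 35, 4 and 30 counts in the hippocampus libraries (8.13, 2.30 and 6.64 CPM), against 9, 9 and 4 counts in cortex (1.74, 1.73 and 1.05 CPM). Hippocampus lay above cortex without overlap, by a narrow margin at control 6 h. Its log2 change of 1.90 (SE 0.46) did not pass (adjusted p = 0.05242, edgeR). With the GC and length offsets it did, at 1.89 (adjusted p = 0.02359), as it did without the hippocampus control 6 h library (adjusted p = 0.01035). Hsd11b1 was called in 5 of 17 alternative settings, but in only 1 of the 6 that left out a library.

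Fkbp5 encodes a co-chaperone that lowers the hormone affinity of the glucocorticoid receptor and is itself induced by it. It had 24.4, 27.0 and 29.7 CPM in the hippocampus libraries (conditioned 6 h, control 6 h, control 1 h), against 12.4, 10.2 and 9.42 CPM in cortex. The tissues did not overlap, and the log2 change was 1.33 (SE 0.28, adjusted p = 0.03029, edgeR). It was called in 11 of 17 alternative settings, but in only 1 of the 6 that left out a library.

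The metallothioneins Mt1 and Mt2 are small metal-binding proteins induced by zinc and by glucocorticoids. Mt2 had 86.4, 43.1 and 95.5 CPM in the hippocampus libraries, against 23.6, 30.7 and 30.3 CPM in cortex, again without overlap. Its log2 change was 1.40 (SE 0.32, adjusted p = 0.04188, edgeR), called in 9 of 17 alternative settings and in 1 of 6 with a library left out. Mt1 overlapped between the tissues and did not pass, with a log2 change of 0.94 (SE 0.29, adjusted p = 0.1364), but passed with the offsets at 1.5 (adjusted p = 0.03229). It was called in 3 of 17 alternative settings and in 1 of 6 with a library left out. Reads of Mt2 may include Gm45774, which overlaps it by 212 bases on the opposite strand.

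In all, 3 of the 9 genes were called higher in hippocampus and 0 lower, where 3.43% of 16378 rows were called in either direction, 1.61% higher and 1.82% lower. Hippocampus lay wholly above cortex for 4 of 9 genes, against 6.56% of rows (13.3% apart in either direction). With the planned offsets 5 of the 9 genes were called, all higher, beside 4.3% of rows, and with factors re-estimated after the trend 5, beside 6.98% of rows; the added genes were Mt1 and Hsd11b1 in both. Klf9, Sgk1 and Tsc22d3 overlapped between the tissues, with log2 changes of 0.71 (-0.30 without the hippocampus control 6 h library), 0.02 and -0.71, none of which passed. With all 8 libraries entered as labelled, 0 rows and 0 of the 9 genes were called by edgeR, with 1790 rows at an unadjusted p under 0.05 and a lowest adjusted p of 0.2478. Of 10 oligodendrocyte markers 0 passed between the tissues without offsets, 2 passed higher with the planned offsets, and 1 passed higher without the pair. All 10 log2 changes were positive without offsets (median 0.79). The summed level of these markers was 1176 to 1431 CPM in hippocampus and 726.5 to 881.7 CPM in cortex, outside the pair. Of 10 astrocyte markers 1 passed, the filament Gfap (1.83, adjusted p = 0.01007, edgeR), and the others lay between -0.50 and 0.75. Of 10 choroid plexus markers 4 were tested and 2 passed, the thyroid hormone carrier Ttr (3.87, adjusted p = 0.006411) and Kl (3.18, adjusted p = 0.004566). The other 2 tested had log2 changes below 0. The summed level of the 10 markers was 134.4 to 208.6 CPM in hippocampus and 99.94 to 166.3 CPM in cortex, and Folr1, Aqp1, Slc4a5 and Otx2 were each at 0 in some libraries. Their part in the results for these genes was not tested.

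**Figure D2:**
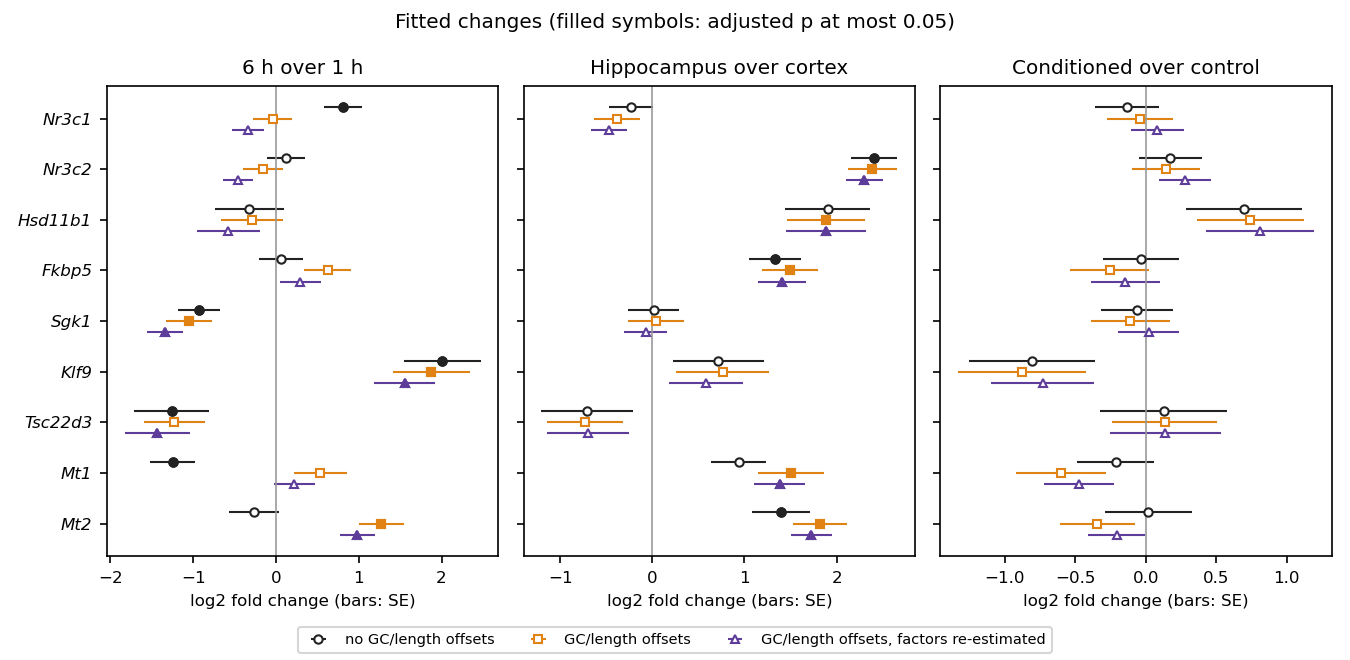
Fitted log2 fold changes with SE for the 3 comparisons, without offsets (circles), with GC and length offsets (squares) and with factors re-estimated after the trend (triangles); filled symbols passed at an adjusted p of 0.05. Nr3c2 stays near 2.40 between tissues, while the 6 h over 1 h changes of Nr3c1 and Mt1 cross 0 with the offsets.

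Between 6 h and 1 h, Klf9 was higher and Sgk1 lower at 6 h under both versions of the offsets as well as without them. Without offsets 5 of the 9 genes were called, 2 higher and 3 lower, where 37.7% of rows were called, 20.5% higher and 17.2% lower. The same 5 genes did not overlap between the times, as did not 45.5% of rows. With the offsets 10% of rows were called (8.87% higher, 1.14% lower) and 3 of the 9 genes. The planned offsets kept the scaling factors of the uncorrected counts and moved the median log2 change of all rows to 0.23, against -0.03 without offsets. A second version with factors re-estimated after the trend was added once those results had been seen. It called 10.7% of rows and 4 of the 9 genes, with the median at -0.05. Without the cortex control 1 h library, and without offsets, edgeR called 0 rows, with 5532 at an unadjusted p under 0.05 and a lowest adjusted p of 0.07099.

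Klf9, a zinc finger transcription factor, had 165 and 998 CPM in the conditioned and control hippocampus libraries at 6 h and 218 and 278 CPM in cortex. At 1 h the controls had 87.9 CPM in hippocampus and 82.9 CPM in cortex, and the pair had 90.2 and 98.7 CPM. All 6 h libraries lay above all 1 h libraries. The log2 change was 2.01 (SE 0.46, adjusted p = 0.01149, edgeR), and 1.27 (SE 0.20, adjusted p = 0.002595) without the hippocampus control 6 h library. It was called in 15 of 17 alternative settings and in 4 of the 6 that left out a library, but not without hippocampus control 1 h (1.63, adjusted p = 0.0619) or cortex control 1 h (1.93, adjusted p = 0.08945). With the planned and the re-estimated offsets it was 1.88 (adjusted p = 0.02996) and 1.55 (adjusted p = 0.02779).

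Sgk1, a kinase induced by serum and glucocorticoids, had 30.4 and 39.1 CPM in conditioned and control hippocampus at 6 h and 27.1 and 35.5 CPM in cortex. At 1 h the controls had 52.7 CPM in hippocampus and 61.0 CPM in cortex, and the pair 70.1 and 73.5 CPM. The 6 h libraries lay below all 1 h libraries, at 33.0 ± 5.30 CPM (SD, n = 4) against 61.8 ± 9.57 CPM (n = 3). Its log2 change was -0.92 (SE 0.25, adjusted p = 0.01956, edgeR), -1.05 (adjusted p = 0.03486) with the planned offsets and -1.34 (adjusted p = 0.01076) with the re-estimated ones. It was called in 4 of the 6 settings that left out a library. It was not called without the conditioned 1 h pair (-0.63, adjusted p = 0.2493), nor with the rows of a gene summed (-0.66, adjusted p = 0.06151).

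Sgk1 has 6 rows that share most of their counts, and the differences between rows were compared. This was looked at after the values were seen and has no test. Counts of NM_011361 beyond the smallest Sgk1 row, in whose annotation 165 bases of NM_011361 are absent, were 5.59 ± 2.62 CPM at 6 h (n = 4) and 18.7 ± 2.98 CPM at 1 h (n = 3), without overlap. Those of NM_001161845, with 810 such bases, were 11.3 ± 2.25 CPM at 6 h and 13.1 ± 1.96 CPM at 1 h, with overlap. The GC content of these stretches was 57.0% and 55.3%, and where the extra reads lay was not measured. Row NM_001161850, whose start lies beside the palindromic element printed above, had 5 such counts in all libraries together. The smallest row itself had 167 and 161 counts in the hippocampus and cortex controls at 1 h, and 190 and 241 in the pair. At 6 h it had 91 and 61 in conditioned and control hippocampus and 122 and 156 in cortex. Scaled to CPM, its 6 h libraries also lay below all 1 h libraries, so the fall was not particular to NM_011361.

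**Figure D3:**
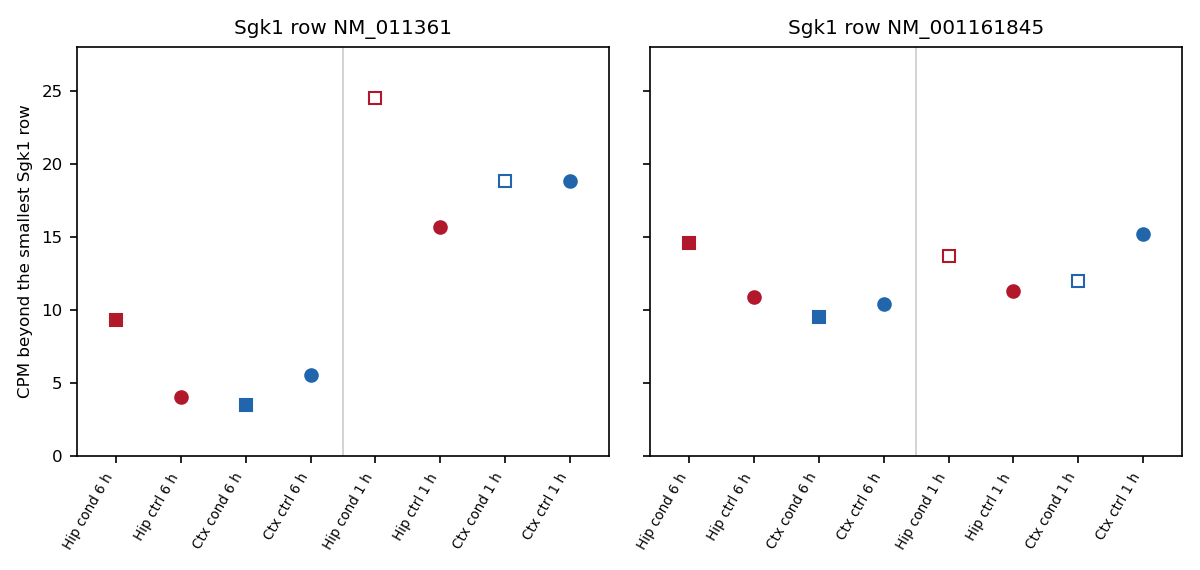
CPM of 2 Sgk1 rows beyond the smallest Sgk1 row in each library, 6 h libraries left and 1 h libraries right (red hippocampus, blue cortex, squares conditioned, circles control, open squares the conditioned 1 h pair). For NM_011361 the 6 h libraries lie between 3.49 and 9.29 CPM, below every 1 h library, while those of NM_001161845 overlap.

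Tsc22d3, a leucine zipper protein induced by glucocorticoids, was at the edge of the threshold. It had 44 and 3 counts in conditioned and control hippocampus at 6 h (10.2 and 1.72 CPM) and 66 and 102 in cortex (12.8 and 19.6 CPM). At 1 h the controls had 26.1 CPM in hippocampus and 21.5 CPM in cortex, and the pair 27.1 and 26.6 CPM. All 6 h libraries were lower than the 1 h libraries. The log2 change was -1.26 (SE 0.45, adjusted p = 0.04984, edgeR), and -0.82 (adjusted p = 0.03815) without the hippocampus control 6 h library. The offsets put it on either side of the threshold: -1.23 with adjusted p = 0.05472 as planned, and -1.43 with adjusted p = 0.04186 with re-estimated factors. It was called in 7 of 17 alternative settings and in 2 of the 6 that left out a library.

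Nr3c1 and Mt1 were called only without the offsets. Nr3c1 averaged 83.2 ± 10.9 CPM at 6 h (n = 4) and 47.6 ± 4.75 CPM at 1 h (n = 3), without overlap, a log2 change of 0.81 (SE 0.23, adjusted p = 0.02235, edgeR). With the planned offsets the change was -0.04 and with re-estimated factors -0.34 (adjusted p = 0.9401 and 0.2616). It was called in 10 of 17 alternative settings, and in 2 of the 6 that left out a library. Its transcript is long, at percentile 89.1 of tested rows, and low in GC, at percentile 8.33. Mt1 averaged 22.5 ± 5.81 CPM at 6 h and 58.2 ± 31.7 CPM at 1 h, a log2 change of -1.25 (SE 0.27, adjusted p = 0.009864), against 0.53 and 0.22 under the 2 versions of the offsets, neither of which passed.

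Mt2 was not called without offsets, at a log2 change of -0.26 (SE 0.30, adjusted p = 0.5045, edgeR). With offsets it was higher at 6 h, at 1.27 (adjusted p = 0.02069) and 0.98 (adjusted p = 0.01912). Mt1 and Mt2 are close in length (549 and 511 bases) and GC content (58.1% and 55.6%), but lie at the short end of all rows, at percentiles 1.32 and 0.975, where the trend rests on few transcripts. In GC content they lie at percentiles 89.0 (Mt1) and 77.5 (Mt2). Their ratio compares them within a library, and was taken without the offsets. Mt2 to Mt1 per kilobase was 3.36 and 1.75 in conditioned and control hippocampus at 6 h and 1.7 and 1.56 in cortex. At 1 h it was 1.10 and 1.04 in the hippocampus and cortex controls and 0.872 and 0.943 in the pair. Every 6 h library was above every 1 h library. This ratio was chosen after the values were seen and has no test. The longest run of identical bases between the transcripts was 20.

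**Figure D4:**
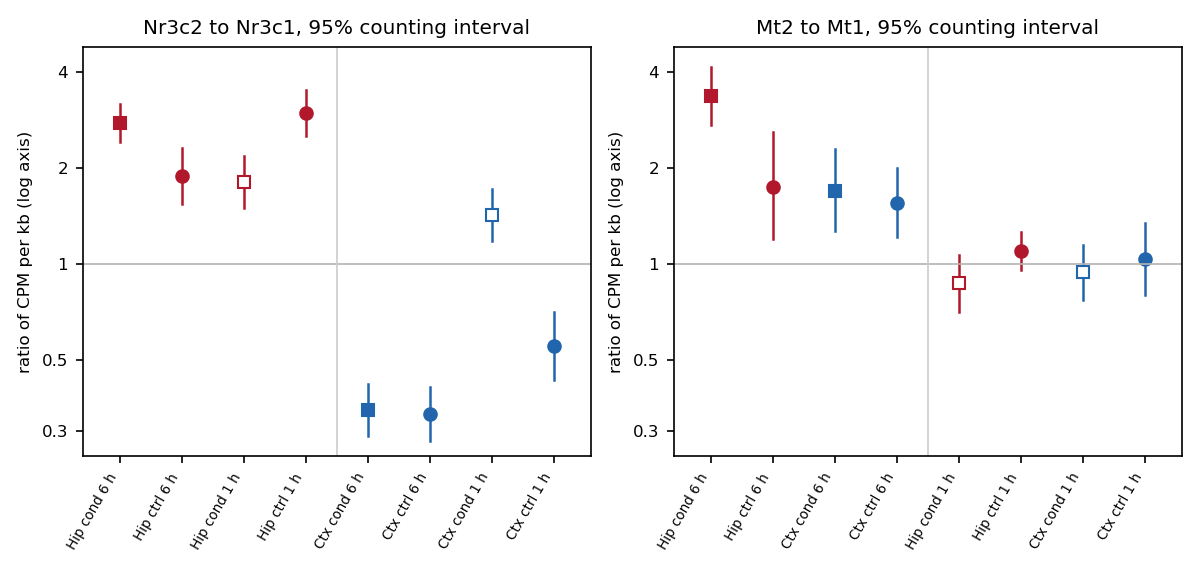
Ratios of CPM per kilobase (log axis) with 95% counting intervals, Nr3c2 to Nr3c1 with hippocampus left of cortex, and Mt2 to Mt1 with 6 h left of 1 h; symbols as in the plot of levels. The receptor ratio lies above 1 in hippocampus and below 1 in cortex outside the open squares, and the metallothionein ratio is 1.56 or more at 6 h and 1.10 or less at 1 h.

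Nr3c2, Fkbp5 and Hsd11b1 had log2 changes of 0.12, 0.06 and -0.32 between 6 h and 1 h without offsets. They were -0.15, 0.62 and -0.29 with the planned offsets and -0.46, 0.29 and -0.57 with re-estimated factors, and none passed in any of these fits.

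Training gave no call. Of 16378 rows 0 (0%) passed, with 296 at an unadjusted p under 0.05 in edgeR, 0 and 267 in DESeq2, and 0 and 327 in limma-voom. Klf9 had a log2 change of -0.81 (SE 0.45) and Hsd11b1 of 0.70 (SE 0.41), each with an adjusted p of 0.9433, and the other 7 lay between -0.21 and 0.17. The conditioned and control libraries overlapped for all 9 genes, where 1.05% of rows did not overlap.

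Within a tissue at 6 h there was 1 library a group and no test. Klf9 had 712 counts in the conditioned and 1736 in the control hippocampus library, a ratio of CPM of 0.166 (95% counting interval 0.152 to 0.181), against 0.785 (0.726 to 0.849) in cortex. Without the hippocampus control 6 h library its fitted training change was -0.15. Sgk1 had ratios of 0.779 (0.577 to 1.06) in hippocampus and 0.764 (0.609 to 0.957) in cortex, and Fkbp5 of 0.903 (0.634 to 1.3) and 1.22 (0.834 to 1.79). Nr3c1 had 0.759 (0.622 to 0.929) and 1.05 (0.919 to 1.19). The hippocampus ratios of Sgk1, Fkbp5 and Nr3c1 depend on the TMM factor of the control library (0.734), and without TMM factors they lay above 1. The intervals do not cover this scaling. The summed level of 10 astrocyte markers was 1889 CPM in the conditioned and 3108 CPM in the control hippocampus library at 6 h, and 1419 to 1749 CPM in the others. Between the same 2 hippocampus libraries, hippocampal neuron markers had 774.6 and 1090 CPM and cortical neuron markers 383.8 and 571.2 CPM. The sums of oligodendrocyte, microglia, choroid plexus, endothelial and striatal neuron markers were lower in the control library. The part of these levels in the ratios was not tested.

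Other genes of the pathway were read from lists written for it. Of 25 further glucocorticoid targets 19 were tested, and between 6 h and 1 h 0 rose and 2 fell, the clock gene Per1 (log2 change -1.27, adjusted p = 0.01149) and the NF-kappaB inhibitor Nfkbia (-1.28, adjusted p = 0.03368). With the planned offsets neither passed, and Hif3a did (2.0, adjusted p = 0.02104). These 2 of 19 stand beside 37.7% of all rows called without offsets. The median change of the list was -0.55, against -0.03 for all rows, and with the planned offsets -0.07, against 0.23 for all rows. Between the tissues 1 rose and 1 fell in hippocampus: the small G protein Rasd1 (2.70, adjusted p = 0.01668) and the cell cycle inhibitor Cdkn1a (-2.23, adjusted p = 0.006087), both also with the offsets (edgeR). With the planned offsets Zbtb16 rose too (1.42, adjusted p = 0.03581), but it did not pass without them (1.19, adjusted p = 0.05272).

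Without offsets 7 of 14 receptor chaperones, 1 of 14 coregulators and 1 of 5 tested genes of steroid handling were called between 6 h and 1 h, against the same 37.7% of rows. Of the chaperones, 2 rose at 6 h, Hsp90aa1 (1.78, adjusted p = 0.006396) and Hspa4 (1.47, adjusted p = 0.01351), and 5 fell, with Stub1 (-1.67) and Fkbp4 (-1.11) the furthest. With the planned offsets 2 rose, Hsp90aa1 (1.27, adjusted p = 0.03589) and Bag1 (1.65, adjusted p = 0.01744), and 0 fell, beside 10% of all rows called. Among 14 coregulators the corepressor Ncor1 rose (1.32, adjusted p = 0.013), also with the offsets (1.3, adjusted p = 0.03548). Ncoa2 passed only with the planned offsets (1.37, adjusted p = 0.04101), and not without them (0.65, adjusted p = 0.09222). Of 9 genes of steroid handling 5 were tested and the progesterone receptor Pgr rose (0.90, adjusted p = 0.02121), which it did not with the offsets (edgeR). None of 14 chaperones or 14 coregulators passed between the tissues, and no gene of these lists passed for training.

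Genes whose log2 CPM followed these genes most closely over 7 libraries are given as a description, since all points share the libraries and their depth. For Nr3c2 they were Epha6 (Pearson r = 0.995), Myo5b (0.995) and Prox1 (0.991), and Prox1 was again among the first 3 after subtraction of the GC and length trend (0.995). For Klf9 they were Anks1b (0.998), Adarb2 (0.997) and Ino80d (0.996), and for Fkbp5 Mmd (0.987), Tcf12 (0.978) and Map4 (0.975). None of the genes named for Klf9 and Fkbp5 stayed among the first 3 after subtraction. For Sgk1 they were AI837181 (0.974), Hax1 (0.973) and Luc7l (0.962), of which Luc7l stayed among the first 3 after subtraction (0.968). Nearest to Nr3c1 was Ghitm (0.995), to Tsc22d3 Stk11 (0.995), to Mt1 Cyth1 (0.969) and to Mt2 Arpc5 (0.961). Of these only Cyth1 was among the first 3 after subtraction (0.987).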

How the data were processed

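Values are whole-number counts per RefSeq transcript row, as deposited by the authors with no normalisation (28157 rows). Library preparation, per the labels' protocols, started from 200 ng of RNA, depleted ribosomal RNA, and used mixed random and poly A priming before SPIA and PCR amplification. CASAVA (1.7), TopHat (1.3.1), edgeR (2.612) and limma (3.12.3) with build mm9 are listed in the submitters' processing notes. How reads were assigned to transcripts, and whether strand was used, was not stated in what was read here. Reads carry no molecular identifiers, so intervals cover counting error only.

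The genes and lists were chosen with earlier results of these data known. Identifiers were matched to symbols through RefSeq and GENCODE tables of GRCm38 (97.89% of rows). Comparisons used the edgeR 4.0.16 quasi-likelihood test in R 4.3.3 (robust, TMM, default low-count filter, Benjamini-Hochberg over all 16378 rows, threshold 0.05). It ran on 7 libraries, with the conditioned 1 h pair summed at tissue 0.5, and with tissue, training and time as terms, leaving 3 residual degrees of freedom. Fold changes are 6 h over 1 h, hippocampus over cortex and conditioned over control. For a single value, an exact permutation test of 4 against 3 libraries cannot go below p = 0.0571 and of 3 against 3 below 0.1, so none is given. Alternatives were DESeq2 1.42.0, limma-voom 3.58.1, other scalings and filters, libraries left out, rows summed, and offsets from a per-library spline (5 degrees of freedom each) on GC content and log length. The offsets were run in 2 versions. The planned version kept the TMM factors of the uncorrected counts. After its results were seen, and because it moved the median of all rows, a second version re-estimated the factors on trend-corrected counts, and both are reported. Levels without the hippocampus control 6 h library were also added after the values were seen. All 9 genes are named by rule, as are the genes of the lists that passed, up to 4 a list, and the 3 most similar genes at an average log2 CPM of at least 4. Ratios of 2 single libraries are ratios of CPM with exact binomial intervals at 95%, and log2 ratios used a prior count of 2.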

Additional observations from a re-analysis of the deposited data

Results flagged for a closer look

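In groups of 4, a value whose gap to its neighbour takes up most of the group's range was singled out, which chance does in about 1 group in 20. Gaps and ranges were taken on a log scale, so the fractions differ from those of the CPM printed beside them. Among the 6 h libraries, Nr3c1 was lowest in hippocampus conditioned 6 h (67.1 CPM), with a gap of 0.845 of the range. Hsd11b1 was highest in the same library (8.13 CPM), with a gap of 0.831. Among the control libraries, Tsc22d3 was lowest in hippocampus control 6 h (3 counts), with a gap of 0.886.

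For Tsc22d3 and Mt2 the conditioned over control ratio at 6 h pointed up in hippocampus and down in cortex, with 1 library a group, so the difference was not tested. Tsc22d3 had 44 against 3 counts in hippocampus (ratio 5.93, 95% counting interval 1.90 to 29.9) and 66 against 102 in cortex (0.653, 0.472 to 0.899), a difference of 2.88 in log2 ratio. Mt2 had 372 against 75 counts in hippocampus (2.01, 1.56 to 2.61) and 122 against 160 in cortex (0.770, 0.603 to 0.980), a difference of 1.37. Both rest on the hippocampus control 6 h library, in which Kif5c took 8.01% of the counts.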

How the results depend on the processing

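No paired analysis was possible because each combination had 1 library and the labels number no replicates. For 6 h over 1 h, 6167 rows and 5 of the 9 genes were called. Without the pair it was 3745 rows and 2 genes, with hippocampus control 6 h also left out 1128 and 1, and with rows of a gene summed 3 genes. The planned GC and length offsets gave 1601 rows and 3 genes. The alternatives chosen after seeing the data gave 1714 rows with re-estimated factors, 1517 rows and 2 genes for the offsets without the pair, and 2528 rows for the offsets without hippocampus control 6 h. Leaving out each library gave 0 to 7327 rows and 0 to 5 genes. Directions under the 4 versions of the offsets differed from those without them for Nr3c1 (-0.04 planned, -0.34 re-estimated, -0.09 without the pair, -0.08 without hippocampus control 6 h), Mt1 (0.53, 0.22, 1.01, 0.13), Mt2 (1.27, 0.98, 1.35, 1.14) and Nr3c2 (-0.15, -0.46, -0.12, -0.23), in the same order; Mt2 passed in all 4 and the others in none. The change from planned to re-estimated factors moved Tsc22d3 across the threshold and the genes called to 4.

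For hippocampus over cortex, 561 rows and 3 genes were called. With 8 libraries as labelled it was 0 and 0, without the pair and hippocampus control 6 h 874 and 5, and with rows summed 371 rows. The planned offsets gave 5 genes, re-estimated factors 1117 rows and 5 genes, the offsets without the pair 898 and 5, and without hippocampus control 6 h 1705 and 5. Leaving out each library gave 1 to 1101 rows and 0 to 5 genes. For training, 0 rows were called except 1 with the offsets without the pair.

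Other sign changes were of log2 changes that passed neither before nor after. For 6 h over 1 h, Fkbp5 was -0.05 without the pair, -0.09 with hippocampus control 6 h also left out and -0.07 with upper-quartile factors, and -0.03 to 0.20 with each library left out. Mt2 was 0.08 and Hsd11b1 0.52 without the pair and hippocampus control 6 h, Mt2 was -0.49 to 0.08 with each library left out, and Nr3c2 was -0.003 with upper-quartile factors. For hippocampus over cortex, Sgk1 was -0.01 with upper-quartile factors and with rows summed, -0.06 without the pair and hippocampus control 6 h, -0.07 with re-estimated offsets, -0.29 with offsets without hippocampus control 6 h, -0.17 to 0.24 with each library left out, and under 0.01 below 0 with limma-voom and with 8 libraries as labelled. Klf9 was -0.20 without the pair and hippocampus control 6 h, -0.36 with offsets without hippocampus control 6 h, and -0.30 to 1.19 with each library left out. For training, leaving out the pair and hippocampus control 6 h gave 0.004 for Nr3c1, 0.10 for Fkbp5, -0.78 for Tsc22d3, -0.34 for Mt2 and -0.12 for Hsd11b1, and leaving out the pair alone 0.07 for Fkbp5. Mt2 was -0.02 with DESeq2 and with its size factors, and -0.34, -0.21, -0.44 and -0.17 under the 4 versions of the offsets. Nr3c1 was 0.08 with re-estimated offsets and 0.01 with offsets without the pair. Offsets without hippocampus control 6 h gave 0.14 for Sgk1 and -0.14 for Tsc22d3, and re-estimated offsets 0.02 for Sgk1. Leaving out each library gave -0.18 to 0.07 for Fkbp5, -0.20 to 0.08 for Sgk1, -0.23 to 0.88 for Tsc22d3, -0.37 to 0.03 for Mt1 and -0.34 to 0.24 for Mt2.

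Without TMM factors, the conditioned over control log2 ratios at 6 h in hippocampus were 0.02 for Nr3c1 (reversed), 0.58 for Nr3c2, -2.17 for Klf9 and 1.41 for Mt2. Those of Sgk1 and Fkbp5 were reversed as well, from below to above 0. The TMM factor was 0.734 for hippocampus control 6 h and 0.983 for hippocampus conditioned 6 h. Mean CPM with rows summed, which counts shared reads repeatedly, was 228 for Sgk1, 30.9 for Tsc22d3 and 7.41 for Hsd11b1. The causes were not tested. Low counts limit Tsc22d3 and Hsd11b1, with 3 and 4 counts in their lowest libraries.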
